A study of Mus musculus with 32 samples.

Results

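The 39 genes described here act in homologous recombination, in the repair of DNA crosslinks and in the copying of damaged DNA. They were taken as a list of symbols, by function and not by measured values, though with earlier results of these data known. They were matched through the gene identifiers of the count tables. All 39 were found among the 43345 mouse genes of each table, and all 39 passed the filter on low counts in both cell systems. They form 8 role groups: BRCA1, BRCA2 and their partners (5 genes), the XRCC2-XRCC3 group, with Rad51b, Rad51c and Rad51d (5), annealing and motor proteins (3), the Fanconi core complex with its enzymes (8), the FANCD2-FANCI pair (2), nucleases (4), helicases with the topoisomerase and a resection nuclease (8), and translesion synthesis (4).

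The study removed ELOF1, an elongation factor of RNA polymerase II, from mouse B cells undergoing class switch recombination, and measured total RNA depleted of ribosomal RNA in 32 libraries. In the CH12F3 B lymphoma line, every library carried an Elof1 knockout, and cells were stimulated with an antibody to CD40, IL4 and TGF-β. CH12F3 cells given back an ELOF1 construct (called ELOF1) and cells with an empty vector (called vector) had 4 libraries each at day 1.5, 2 each at day 3 and 2 each at day 7. Splenic B cells of wild-type mice (WT) and of Elof1 conditional knockout mice (cKO) were stimulated with IL4 and LPS, with 5 libraries each at day 2.5 and 3 each at day 3.5. Every genotype fold change sets cells lacking ELOF1 over cells that have it: vector over ELOF1 in CH12F3 cells, and cKO over WT in spleen. The sources used here do not give the promoter of the deleting recombinase, the age and number of the mice, any pooling of animals or the number of CH12F3 clones. No source says that replicates came from separate cultures or animals, so p-values measure the spread between these libraries, which may in part be technical.

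Homologous recombination copies the sister chromatid to mend a broken chromosome. BRCA1 with BARD1 prepares the break for resection, PALB2 brings in BRCA2 to the break, and the XRCC2-XRCC3 group assists the later search for the matching sister sequence. At a crosslink, the Fanconi core complex attaches ubiquitin to FANCD2 and FANCI, which recruit nucleases that cut the lesion out. Translesion polymerases copy past bases that stop the replicative polymerases. In activated B cells AID turns cytosine into uracil, polymerase η and REV1 write many of the resulting mutations, and recombination protects the genome from the breaks that AID makes outside its targets.

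Depth was 7112130 to 16359477 mouse counts per library, and the 39 genes together held 0.132% to 0.191% of them. Elof1 itself followed the labels: in CH12F3 cells it was 0.966 to 5.49 CPM (counts relative to the scaled library total) in the 8 vector libraries and 140 to 681 CPM in the 8 ELOF1 libraries, and in spleen it was 1.27 to 7.65 CPM in the 8 cKO and 11.0 to 55.1 CPM in the 8 WT libraries. The 8 B cell markers checked were all at 1 CPM or more in every group, and Cd3e, a defining T cell gene, was at most 0.407 CPM in any library. The 10 T and NK cell genes summed to 63.01 to 210.1 CPM in CH12F3 and 1.04 to 16.4 CPM in spleen libraries, with 1 to 3 of them at 1 CPM or more in a group. The 10 myeloid genes summed to 68.6 to 251 and 11.9 to 34.2 CPM; of these Csf1r was 22.6 to 59.1 CPM in CH12F3 cells and at most 0.578 CPM in spleen, and Lyz2 was at most 0.4934 and 7.77 CPM. Their part in the results was not tested. Library numbers in the labels fall into 2 runs, called here the first and second library series. The first series holds 8 libraries (replicates 1 and 2 of both CH12F3 groups at day 1.5 and replicates 4 and 5 of both spleen groups at day 2.5), and these had 0.984% to 3.08% mitochondrial ribosomal RNA against 0.06996% to 0.566% in the second. Both genotypes are in both series, and the fit has a term for it. The first-series library WT day 2.5 replicate 4 stood apart for several of the genes, and values without it are given beside the results that name it.

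All 39 genes were expressed in both systems (plot of expression per length). Levels between genes are compared as RPKM, the CPM divided by the exon length in kilobases. In CH12F3 cells the highest were Blm, the helicase mutated in Bloom syndrome, at 21.1 ± 2.10 RPKM (SD, n = 16 libraries), and Polh, polymerase η, at 18.2 ± 2.75 RPKM. In spleen cells the same pair led in the other order, Polh at 26.9 ± 3.18 RPKM and Blm at 14.7 ± 2.99 RPKM (SD, n = 16). The lowest in both systems was Fan1, a nuclease that acts on crosslinks, at 0.953 ± 0.197 RPKM in CH12F3 cells and 1.62 ± 0.430 RPKM in spleen. Fan1 had 38 to 140 counts per library. Fancf, an adaptor of the Fanconi core complex, had as few as 2 counts in a CH12F3 library. In CH12F3 cells these 2 genes are measured least precisely. In spleen the lowest average log2 CPM was that of Rad51b, at 2.50 (Fancf 3.01, Fan1 3.03). Rad51b also had the largest standard error there between the library series (0.248).

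**Figure D1:**
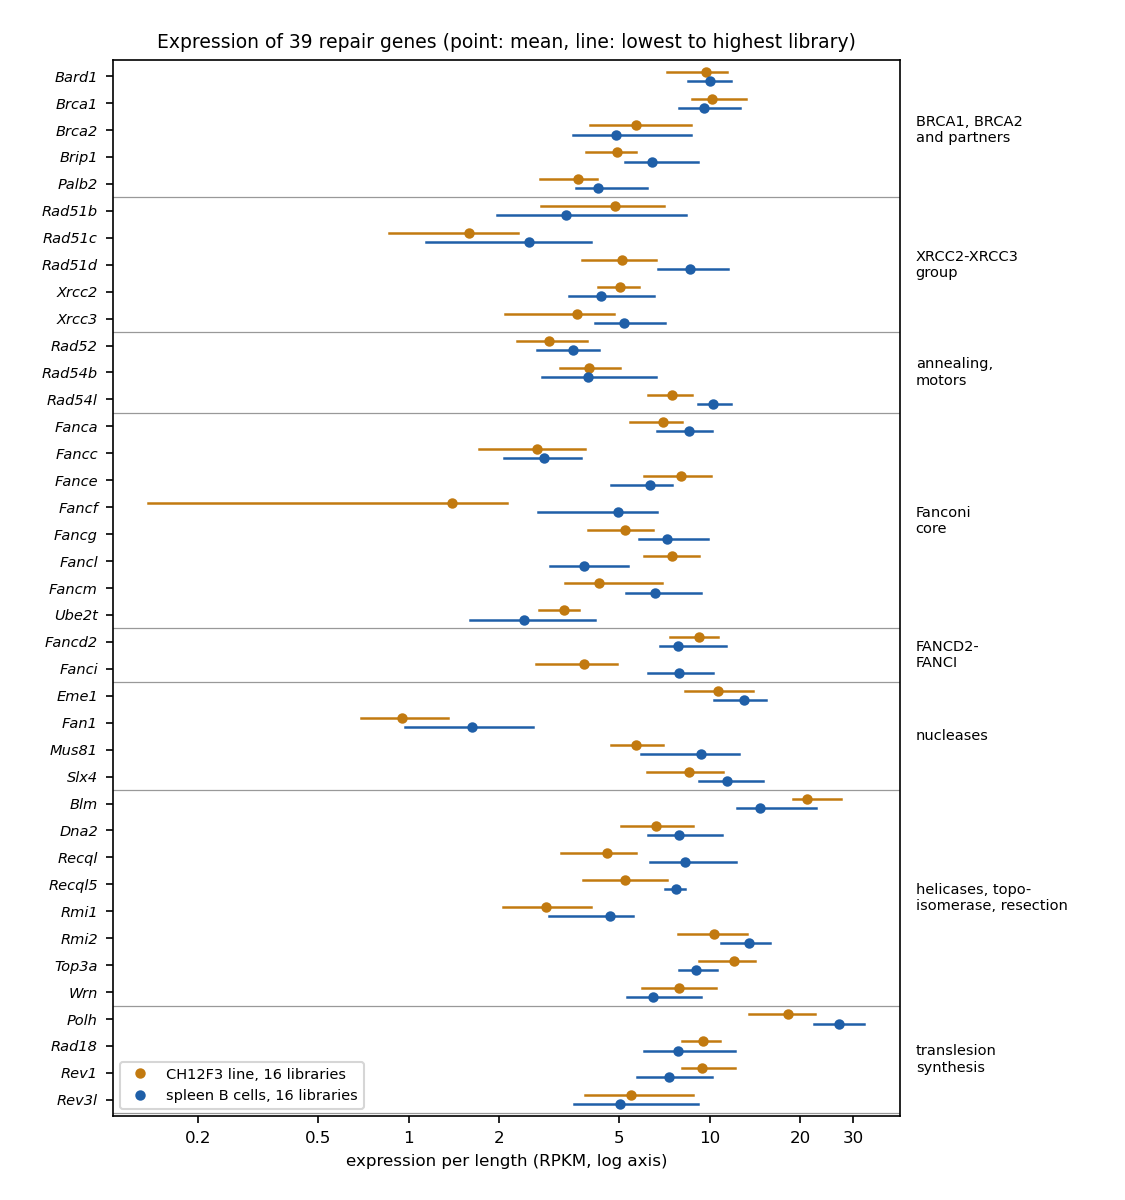
Expression per length (RPKM, log axis) of the 39 genes in 16 CH12F3 and 16 spleen libraries, ordered by role; points are means over all groups of a system and lines run from the lowest to the highest library. Blm and Polh are highest in both systems, Fan1 is lowest, and Fancf in CH12F3 cells has the widest range.

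In CH12F3 cells none of the 39 genes differed between vector and ELOF1 libraries at an adjusted p below 0.05 (edgeR quasi-likelihood test, Benjamini-Hochberg over all genes). At day 1.5, with 4 libraries in each group, 164 of 14201 genes did so (1.15%). At this time 0 of the 39 had an unadjusted p under 0.05, against 1904 of all genes tested (13.4%). The log2 fold changes of the 39 had a median of 0.02 (all genes 0.01), and 36 of them lay within 0.25 of 0. Same-numbered libraries of the 2 CH12F3 groups deviated together, and with the pairs as a block the count over all genes was 1221 (8.60%) while the count among the 39 was again 0. DESeq2 also called 0 of the 39, with 447 of all genes. Scaled to the added fly RNA, the medians of all genes moved to -0.08, -0.19 and -0.14 at the 3 CH12F3 times and to -0.14 and -0.29 at the 2 spleen times, and 27, 38, 34, 34 and 38 of the 39 had negative values, so directions here are relative to the rest of the RNA.

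At day 1.5 the log2 fold change of Brca1 was 0.12 ± 0.0822 (SE), that of Brca2 0.08 ± 0.127, that of Palb2 -0.07 ± 0.108 and that of Bard1, the partner of BRCA1 in its ubiquitin ligase, 0.09 ± 0.0856. The translesion genes Polh (-0.05 ± 0.0774), Rad18 (-0.03 ± 0.101), Rev1 (0.02 ± 0.0747) and Rev3l (0.02 ± 0.136), the last encoding the catalytic subunit of polymerase ζ, also had values near 0. Adjusted p for all 39 was 0.446 or more (edgeR). The smallest p belonged to Fancg, a subunit of the Fanconi core complex. Its CPM was 19.5, 15.8, 21.4 and 20.02 in the ELOF1 libraries and 23.8, 22.7, 23.2 and 19.8 in the vector libraries. The groups overlapped, since the fourth vector library lay inside the ELOF1 range, and the log2 fold change was 0.22 ± 0.115 (edgeR adjusted p = 0.446). Next came Recql, a RecQ helicase, at 27.03, 25.3, 37.9 and 35.9 CPM in ELOF1 and 33.3, 35.2, 35.5 and 37.6 CPM in vector libraries. Here the 2 first-series ELOF1 libraries were low and all others lay close together, and the log2 fold change was 0.18 ± 0.0992 (edgeR adjusted p = 0.472).

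At day 3 and day 7, with 2 libraries in each group, 0 of the 39 genes passed the test, 0 of the 39 had an unadjusted p under 0.05, and 1 (0.00704%) and 5 (0.0352%) of all genes passed; DESeq2 called 0 of the 39 on both days and 13 and 27 of all genes. Medians of the 39 were -0.06 at day 3 (30 of 39 negative, all genes 0.00) and -0.02 at day 7 (23 negative, all genes 0.01). At day 3 the smallest p belonged to Wrn, the helicase and nuclease mutated in Werner syndrome, at 49.8 and 55.2 CPM in ELOF1 against 43.5 and 43.3 CPM in vector libraries (log2 fold change -0.28 ± 0.148, edgeR adjusted p = 1). The pairs did not overlap, but at day 1.5 Wrn ran from 54.9 to 71.1 CPM in ELOF1 and from 44.9 to 68.4 CPM in vector libraries. Fanca, a scaffold subunit of the core complex, was 70.7 and 71.8 CPM in ELOF1 and 62.3 and 64.1 CPM in vector libraries at day 3, and 72.99 and 71.95 against 60.04 and 66.98 CPM at day 7. Both pairs were apart in the same direction, with log2 fold changes of -0.17 ± 0.102 and -0.19 ± 0.102, neither past the threshold (edgeR adjusted p = 1 and 0.915), and at day 1.5 the Fanca groups overlapped (48.9 to 67.9 and 55.1 to 65.4 CPM). Ube2t, the ubiquitin-conjugating enzyme of the pathway, was 15.1 and 16.1 CPM in ELOF1 and 18.96 and 18.02 CPM in vector libraries at day 7 (0.24 ± 0.142, edgeR adjusted p = 0.942). With 2 libraries a group, pairs without overlap were common. Of the 39 genes at day 3, 4 had vector libraries apart and higher (15.8% of all genes tested) and 8 lower (16.6%). At day 7 there were 3 higher (16.7%) and 4 lower (16.1%).

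Across the 3 CH12F3 times no log2 fold change of the 39 exceeded 0.5 in size. The median standard error was 0.117 at day 1.5, 0.164 at day 3 and 0.163 at day 7, and the largest was 0.418, for Fancf at day 7. The genotype effect did not differ between day 3 or day 7 and day 1.5 for any of the 39 by the test of that difference, nor for any other gene (0.0% in both, edgeR); at an unadjusted p under 0.05, 1 of the 39 did so at day 3, Fancg (-0.47 ± 0.197), and 0 at day 7.

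**Figure D2:**
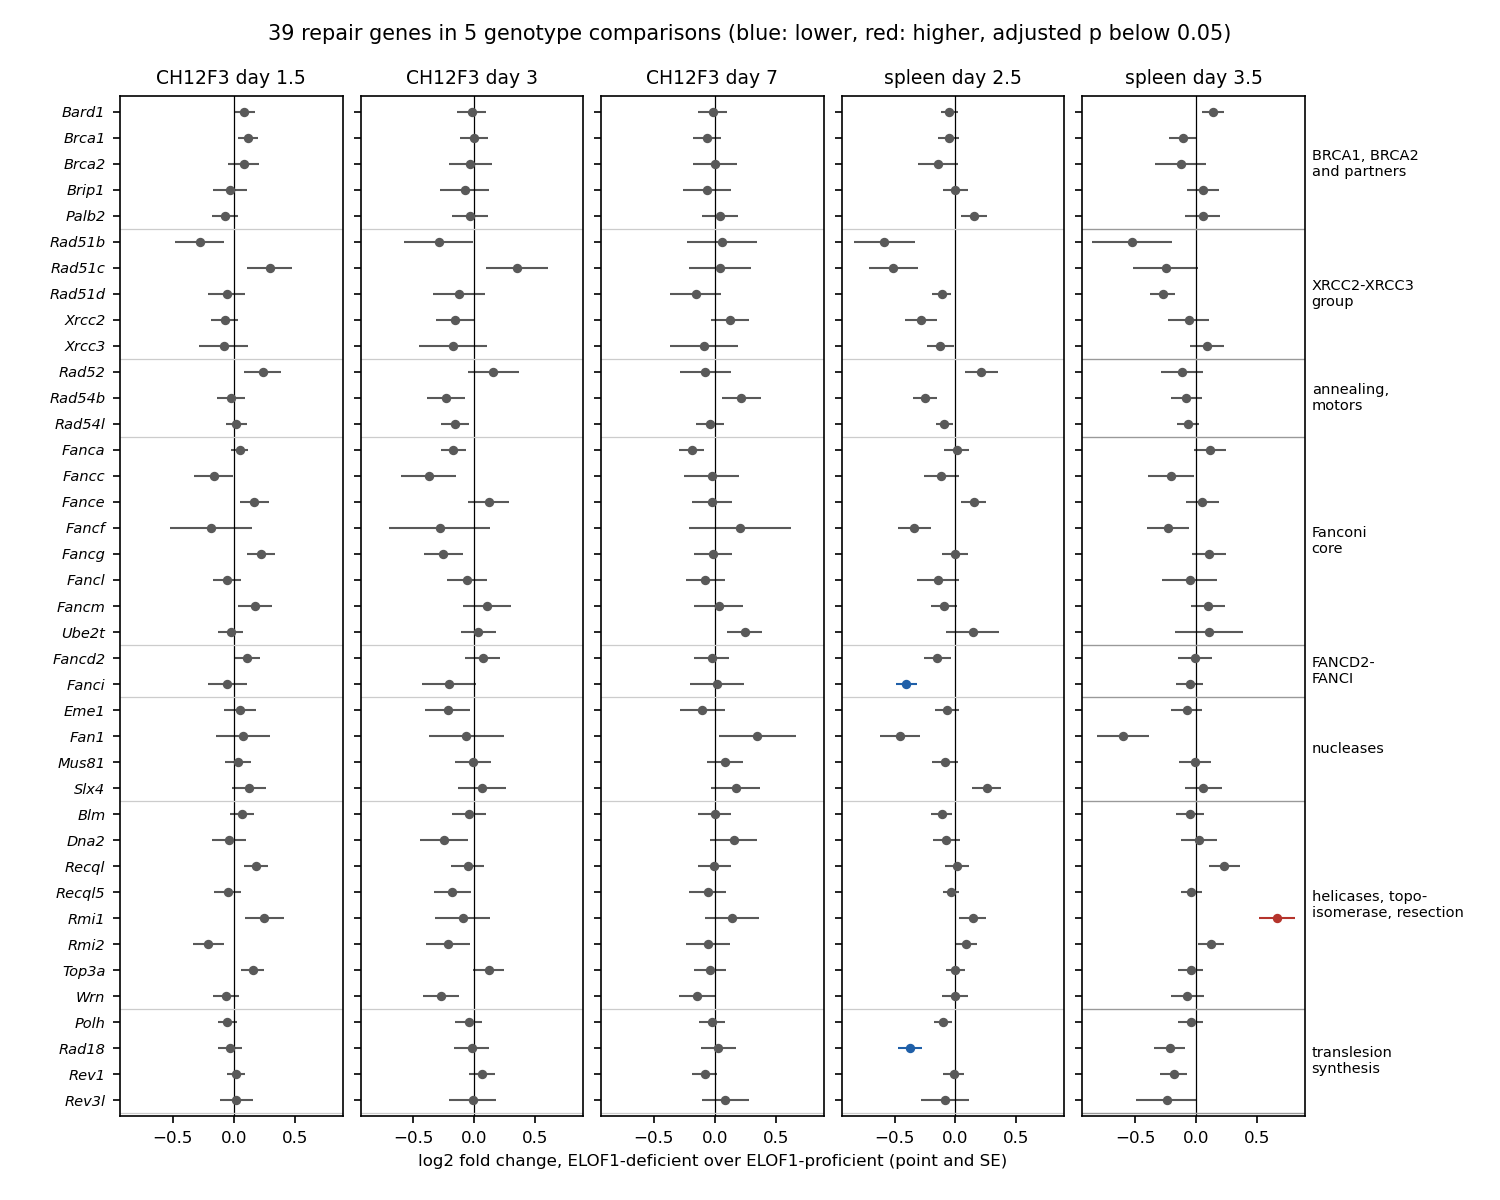
Log2 fold change (x axis, ELOF1-deficient over ELOF1-proficient, point and SE) of the 39 genes in the 3 CH12F3 and 2 spleen comparisons, grouped by role. Coloured points passed an adjusted p below 0.05: 0 genes in CH12F3 cells, Fanci and Rad18 (lower) in spleen at day 2.5 and Rmi1 (higher) at day 3.5.

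In spleen B cells at day 2.5, 2 of the 39 genes were lower in cKO cells at an adjusted p below 0.05 and 0 were higher, against 693 of 13367 genes tested (5.18%). They were Fanci, the partner of FANCD2 in the clamp that marks crosslinks, and Rad18, the ubiquitin ligase that modifies PCNA so that translesion polymerases are recruited. At an unadjusted p under 0.05 there were 8 of 39, 7 of them lower, against 2401 of all genes (17.96%). The median of the 39 was -0.08 with 29 negative, where the median of all genes was 0.00. WT replicate 4 was high over the 39 as a set. Their median log2 deviation from each gene's spleen mean was 0.282 there. The other WT libraries of this day were at -0.00423 to 0.0904, and cKO replicate 4 was at 0.195. Without WT replicate 4 the sign of the fold change turned for 6 of the 39. In bulk RNA, fewer cells of a type and less RNA per cell cannot be told apart.

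Fanci (chromosome 7, 79391929 to 79450265, plus strand, mm10) was 45.5, 55.2, 46.8, 51.5 and 46.1 CPM in the WT and 38.6, 36.1, 34.7, 42.1 and 34.2 CPM in the cKO libraries at day 2.5. Every cKO library was below every WT library, in both library series. Of the 39 genes 1 was apart and lower, Fanci (1.62% of all genes tested), and 0 were apart and higher (1.5%). The means were 49.0 ± 4.19 and 37.1 ± 3.25 CPM (SD, n = 5 each), the log2 fold change was -0.40 ± 0.0865 (SE), a 1.32-fold difference, and the adjusted p was 0.0125 (edgeR). It was -0.44 in the second series alone (edgeR adjusted p = 0.0113) and -0.37 in the first series alone, where 2 libraries a group gave an adjusted p of 1. Without WT replicate 4 it was -0.38 (edgeR adjusted p = 0.0253), and it passed the threshold with any 1 of the 10 libraries left out. With counts scaled to the added fly RNA, it was -0.54 with an adjusted p of 0.172 (edgeR). Of the exon bases of Fanci, 14.8% are shared with Polg on the other strand, and Polg was higher in cKO cells (0.27, edgeR adjusted p = 0.0266). Its partner Fancd2 differed by -0.15 ± 0.107 at this time and did not pass. At day 3.5 Fanci was 41.7, 47.2 and 39.6 CPM in WT and 39.9, 40.0 and 44.3 CPM in cKO libraries, which overlapped (-0.05 ± 0.111), and the difference between the effects of the 2 days was 0.35 ± 0.141 with an edgeR adjusted p of 1 (unadjusted p = 0.0240 from the same fit). Polg was higher in cKO cells at day 3.5 as well (0.38, edgeR adjusted p = 0.0248). The part of Polg in the Fanci values was not tested.

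Rad18 (chromosome 6, 112619850 to 112696686, minus strand) was 42.8, 46.1, 46.1, 65.9 and 51.9 CPM in WT and 32.8, 36.1, 39.1, 43.9 and 42.3 CPM in cKO libraries at day 2.5. The groups overlapped, since 1 second-series WT library lay below a first-series cKO library, but within each series every cKO library was below every WT library. The log2 fold change was -0.37 ± 0.0972 (edgeR adjusted p = 0.0354), a 1.29-fold difference. The call was not stable. Without WT replicate 4, the library at 65.9 CPM, the log2 fold change was -0.30 (edgeR adjusted p = 0.0797), and Rad18 passed in 2 of the 10 fits that left out 1 library, with adjusted p from 0.0245 to 0.0921. It was also lost in the second series alone (-0.33, edgeR adjusted p = 0.0907), where its direction was the same. At day 3.5 Rad18 was 39.1, 40.8 and 47.6 CPM in WT and 33.6, 42.9 and 33.1 CPM in cKO libraries (-0.22 ± 0.126), and the groups overlapped.

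The promoters of both genes, from RefSeq (GRCm38.p6, 250 bases before to 50 after the start), are shown because these are the members that differed at day 2.5. Capitals mark a GC box (GGGCGG), the only one of the 4 motif classes searched (E2F, CCAAT box, CHR and GC box) that was found in either.
Fanci, chr7:79392088-79392387, plus strand: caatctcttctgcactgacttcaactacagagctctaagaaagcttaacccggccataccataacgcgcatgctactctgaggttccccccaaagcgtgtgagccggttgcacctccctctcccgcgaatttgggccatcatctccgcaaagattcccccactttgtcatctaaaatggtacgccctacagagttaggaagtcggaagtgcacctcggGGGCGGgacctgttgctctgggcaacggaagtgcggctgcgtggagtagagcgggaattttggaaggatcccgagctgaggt
Rad18, chr6:112696621-112696920, minus strand: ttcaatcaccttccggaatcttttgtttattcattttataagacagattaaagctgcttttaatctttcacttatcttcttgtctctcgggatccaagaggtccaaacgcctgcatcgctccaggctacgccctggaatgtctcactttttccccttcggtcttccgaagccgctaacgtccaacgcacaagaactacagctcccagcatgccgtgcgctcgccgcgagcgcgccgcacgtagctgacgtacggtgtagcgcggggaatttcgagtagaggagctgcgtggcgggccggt
The RefSeq start of Fanci lies 409 bases from the start of the gene in the count table, and that of Rad18 lies 16 bases from it.

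The XRCC2-XRCC3 group forms complexes that assist recombination, and all 5 genes had negative values in spleen at day 2.5 (median -0.28), none past the adjusted threshold in the fit without a replicate block. Rad51b was 6.84, 4.39, 5.62, 14.0 and 6.61 CPM in WT and 5.05, 4.25, 3.34, 8.22 and 3.61 CPM in cKO libraries. The groups overlapped, and both first-series replicates numbered 4 were the highest of their group (-0.58 ± 0.248, edgeR adjusted p = 0.218). Without WT replicate 4 the value was -0.34 (edgeR adjusted p = 0.452). Rad51c was 14.1, 16.4, 11.1, 12.0 and 13.2 CPM in WT and 9.26, 9.45, 10.3, 4.78 and 12.8 CPM in cKO libraries (-0.51 ± 0.203, edgeR adjusted p = 0.183), with 1 cKO library inside the WT range. Xrcc2 differed by -0.28 ± 0.133, Rad51d by -0.11 ± 0.0806 and Xrcc3 by -0.12 ± 0.110.

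The other members below an unadjusted p of 0.05 at day 2.5 did not pass the adjusted test either. Fan1 was 8.53, 8.24, 7.74, 12.8 and 9.996 CPM in WT and 5.33, 6.01, 7.29, 9.27 and 6.40 CPM in cKO libraries, so that 4 of 5 cKO libraries lay below every WT library (-0.46 ± 0.167, edgeR adjusted p = 0.141). Rad54b, a motor protein of the SNF2 family, differed by -0.25 ± 0.0973, and it shares 35.9% of its exon bases with other genes. Fancf differed by -0.34 ± 0.138, and Slx4, the scaffold that gathers the crosslink nucleases, was the only one of the 8 with a positive value (0.26 ± 0.116, edgeR adjusted p = 0.258). BRCA1, BRCA2 and their partners had a median of -0.05, with 0 of 5 genes under an unadjusted p of 0.05, and the helicase group a median of 0.00, with 0 of 8.

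At day 3.5 in spleen, 1 of the 39 genes passed, higher in cKO cells, against 277 of 13367 genes tested (2.07%). It was Rmi1, a scaffold of the BLM-TOP3A complex that undoes double Holliday junctions. Its CPM was 11.4, 9.66 and 12.8 in WT and 17.3, 17.9 and 18.3 in cKO libraries. The 3 cKO libraries were all above the 3 WT libraries, at 17.9 ± 0.533 against 11.3 ± 1.56 CPM (SD, n = 3 each). The log2 fold change was 0.67 ± 0.146, a 1.59-fold difference, with an adjusted p of 0.0243 (edgeR). At day 2.5 Rmi1 was 12.0, 15.3, 14.3, 16.5 and 17.8 CPM in WT and 17.3, 15.4, 17.6, 15.2 and 17.9 CPM in cKO libraries, which overlapped (0.14 ± 0.112). The difference between the effects of the 2 days was 0.52 ± 0.184 (unadjusted p = 0.0117, edgeR adjusted p = 1), and 0 of 13367 genes passed that test (0.0%). With 1 library left out, Rmi1 passed only without WT replicate 3, and the adjusted p was 0.0448 to 0.120 over the 6 fits. With the fly scaling it was 0.37 (edgeR adjusted p = 0.529). Rmi1 shares 1.50% of its exon bases with Hnrnpk on the other strand, which differed by 0.07 (edgeR adjusted p = 0.932).

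The other subunits of the same complex did not pass at day 3.5: Blm was at -0.05 ± 0.113, Top3a at -0.04 ± 0.102 and Rmi2 at 0.12 ± 0.109. The median of all 39 genes was -0.05, with 25 negative (all genes 0.00), and 3 of 39 had an unadjusted p under 0.05 (all genes 13.5%). Fan1 was 10.7, 9.46 and 8.06 CPM in WT and 4.81, 8.10 and 5.68 CPM in cKO libraries, overlapping by 1 library (-0.60 ± 0.215, edgeR adjusted p = 0.194). Rad51d was 37.4, 40.1 and 37.6 CPM in WT and 29.3, 31.7 and 34.3 CPM in cKO libraries, groups that did not overlap (-0.27 ± 0.102, edgeR adjusted p = 0.225). Recql was 47.9, 48.4 and 44.7 CPM in WT and 52.8, 57.6 and 54.8 CPM in cKO libraries, also apart (0.23 ± 0.127, edgeR adjusted p = 0.488). Over the 39 genes, 3 had all cKO libraries above all WT libraries (12.6% of all genes tested) and 3 had all below (12.5%). At the same time the summed level of 24 S phase genes was 5075 to 5252 CPM in cKO and 4564 to 4768 CPM in WT libraries, and that of the 8 B cell genes was 11686 to 14151 CPM in cKO and 9264 to 11892 CPM in WT libraries. The 10 T and NK cell genes summed to 7.16 to 9.87 CPM in cKO and 14.4 to 16.4 CPM in WT libraries, and the 10 myeloid genes to 25.9 to 34.2 and 16.5 to 21.9 CPM, so both lists were apart, in opposite directions. Their part in the results for the 39 genes was not tested.

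**Figure D3:**
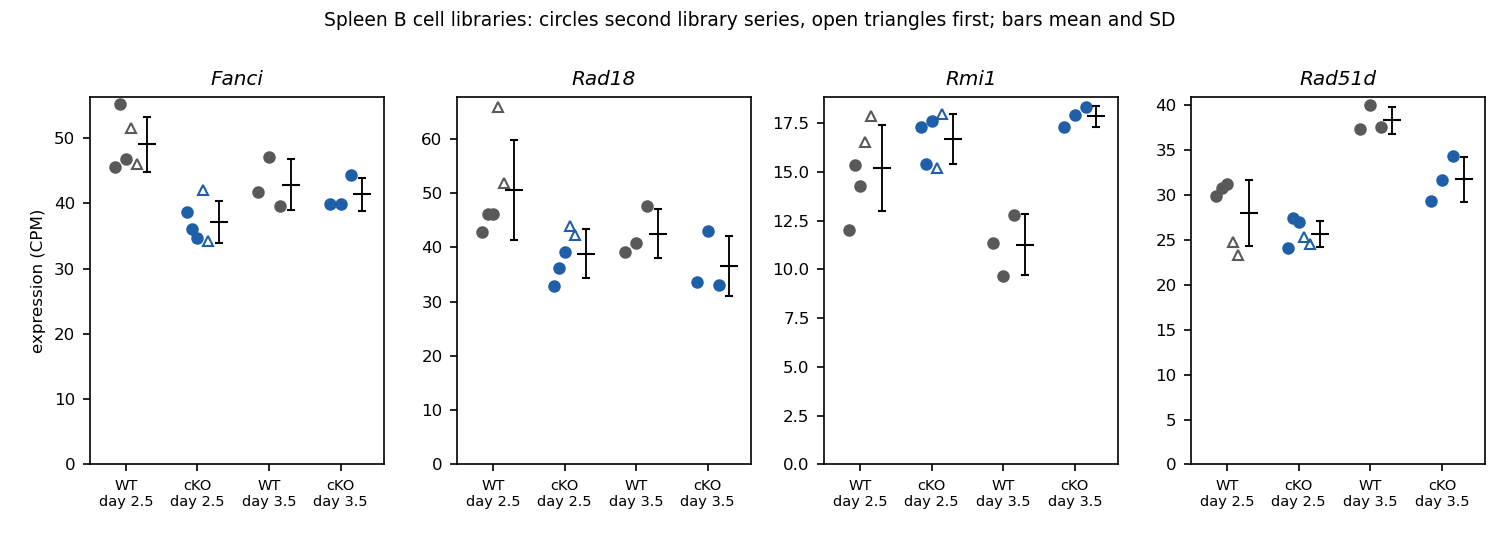
CPM (y axis, from 0) of Fanci, Rad18, Rmi1 and Rad51d in each spleen library by genotype and day; circles are the second library series, open triangles the first, and bars the mean and SD. Fanci is lower in all 5 cKO libraries at day 2.5, Rmi1 is higher in all 3 at day 3.5, and Rad51d is higher at day 3.5 than at day 2.5 in both genotypes.

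The promoter of Rmi1 (RefSeq, GRCm38.p6) is shown beside those above because Rmi1 was the 1 member higher in cKO cells. Capitals mark an E2F motif (TTTGGCGC) and a CCAAT box read on the other strand (ATTGG), both after the start; of the 2 RefSeq promoters of Rmi1 and of Rad18, 1 each is printed.
Rmi1, chr13:58402347-58402646, plus strand: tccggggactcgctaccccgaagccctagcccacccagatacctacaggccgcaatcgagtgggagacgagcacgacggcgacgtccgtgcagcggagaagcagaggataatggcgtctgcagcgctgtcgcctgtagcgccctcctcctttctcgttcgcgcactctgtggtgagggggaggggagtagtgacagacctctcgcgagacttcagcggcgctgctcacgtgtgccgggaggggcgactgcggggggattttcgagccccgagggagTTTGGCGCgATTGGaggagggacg

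A second list of 51 other genes of these pathways, such as Rad50 and Exo1, was tested in the same fits. In CH12F3 cells 0 of 51 passed at each of the 3 times (all genes 1.15%, 0.00704% and 0.0352%), with medians of 0.04, -0.01 and 0.05. In spleen 1 of 51 was higher in cKO cells at each time and 0 were lower, with medians of -0.01 at both. Of all genes, 5.18% and 2.07% passed in either direction at these times. The gene was Eme2, a partner of the MUS81 nuclease, on both days (0.61 ± 0.139, edgeR adjusted p = 0.0179, and 0.77 ± 0.179, adjusted p = 0.0338). Its paralog Eme1 and Mus81 itself are among the 39 and did not pass.

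Between the days of culture in CH12F3 ELOF1 cells no member passed. At day 3 over day 1.5, 0 of 39 passed (all genes 0.00704%), and at day 7 over day 1.5, 0 of 39 (all genes 0.0493%). On both days 2 of 39 had an unadjusted p under 0.05, Recql5 and Eme1 at day 3 and Recql and Eme1 at day 7 (all genes 4.21% and 7.60%), and DESeq2 called 0 of 39 on both. Recql was between 25.3 and 37.9 CPM at day 1.5 and at 45.4 and 41.8 CPM at day 7, and did not pass the adjusted test (0.34 ± 0.127, edgeR adjusted p = 0.515).

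In WT spleen cells 1 of 39 genes passed between day 3.5 and day 2.5, against 729 of 13367 (5.45%). It was Rad51d, which binds XRCC2. Rad51d was 29.8, 30.8, 31.2, 24.8 and 23.3 CPM at day 2.5 and 37.4, 40.1 and 37.6 CPM at day 3.5. All day 3.5 libraries lay above all day 2.5 libraries, and the 2 first-series libraries were the lowest (0.38 ± 0.0964, edgeR adjusted p = 0.0317). In cKO cells Rad51d was 24.1, 27.5, 26.9, 25.3 and 24.6 CPM at day 2.5 and 29.3, 31.7 and 34.3 CPM at day 3.5, again without overlap (0.22 ± 0.0983, edgeR adjusted p = 0.278). In cKO cells 0 of 39 passed, against 3.4% of all genes, where 2 of 39 had an unadjusted p below 0.05 (all genes 15.8%) and DESeq2 called 0. The call in WT cells was lost in 6 of 8 fits that left out 1 library, with adjusted p from 0.0335 to 0.139. Another 6 members in WT cells had an unadjusted p under 0.05 (7 of 39 in all, 18.3% of all genes), all with lower values at day 3.5: Bard1, Polh, Xrcc3, Rad54b, Rmi1 and Rad51c. Without WT day 2.5 replicate 4, Polh passed as well (-0.33, edgeR adjusted p = 0.0349). Bard1 was 51.9, 61.9, 54.1, 60.5 and 57.9 CPM at day 2.5 and 47.1, 45.2 and 46.5 CPM at day 3.5, apart in every library (-0.29 ± 0.0873, edgeR adjusted p = 0.0731). Of the 39 genes in WT cells, 1 had all day 3.5 libraries above all day 2.5 libraries (9.16% of all genes tested). For 6 genes all lay below (5.41%). In cKO cells the counts were 1 above (9.13%) and 0 below (6.28%). In the second library series alone, where the day 2.5 group has 3 libraries, 8 of 39 genes passed in WT cells. Of these 6 were lower (Bard1, Recql, Dna2, Rad51c, Xrcc3 and Polh) and 2 higher (Wrn and Rad51d). Over all genes 2005 passed in this fit. Their share and directions are not given here, so the 8 are not read as more or fewer than over all genes.

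The median of the 39 between these days was -0.06 in WT and -0.02 in cKO cells, where that of all genes was 0.01 and 0.00. Proliferation genes had lower values beside them: 3 of 24 S phase genes and 6 of 22 genes of G2 and mitosis passed as lower in WT cells, with medians of -0.19 and -0.32, and 0 and 2 in cKO cells, with medians of -0.15 and -0.22. None of either list passed as higher. Their part in the values of the 39 genes was not tested.

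E2F motifs, bound by the factors that switch on many S phase genes, were searched in the RefSeq promoters. Of the 39 genes, 31 were in the promoter table, and 5 of these (16.1%) held TTTCCCGC, TTTGGCGC, TTTGCCGC or TTTCGCGC on either strand, against 2.61% of 27025 genes in the table. CCAAT was found in 17 of 31 (54.8%, all genes 41.1%), TTTGAA, the core of the CHR element of mitotic genes, in 3 (9.68%, all genes 20.2%), and GGGCGG in 18 (58.1%, all genes 38.2%). Base composition was not matched between the members and all genes. The E2F matches other than that of Rmi1 are shown with 10 bases on each side, because the letters around the motif can then be compared between genes, with capitals for the motif (GCGGGAAA is TTTCCCGC on the other strand).
Bard1, chr1:71103164-71103191, minus strand: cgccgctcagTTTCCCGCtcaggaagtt
Brca2, chr5:150522443-150522470, plus strand: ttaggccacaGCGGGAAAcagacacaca
Fancg, chr4:43010336-43010363, minus strand: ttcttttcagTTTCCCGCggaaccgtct
Rad51c, chr11:87404942-87404969, minus strand: ccccgcgaggGCGGGAAAagcaaggggt
Rad51c, second start, chr11:87404478-87404505, minus strand: tttccagcgcTTTCGCGCctcttgctct
Between day 3.5 and day 2.5 in WT spleen cells the log2 fold changes of the 5 genes were -0.29 for Bard1, -0.37 for Rmi1, -0.56 for Rad51c, -0.11 for Fancg and 0.01 for Brca2, none past the adjusted threshold.

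The largest differences among the 39 genes were between the 2 cultures. CH12F3 ELOF1 libraries at day 1.5 (n = 4) were set against spleen WT libraries at day 2.5 (n = 5) in 1 fit of all 32 libraries. These cultures differ in origin, stimulus, day and Elof1 level at once, which cannot be told apart: Elof1 was 13.7-fold higher in the CH12F3 libraries (log2 3.78, edgeR adjusted p = 4.48e-08). Of the 39 genes 28 passed, against 61.8% of 15639 genes tested. As higher in CH12F3 cells 7 passed (28.9% of all genes) and as lower 21 (32.9% of all genes). The median of the 39 was -0.30 and that of all genes -0.06. All CH12F3 libraries lay above all spleen libraries for 1 member (19.6% of all genes) and below them for 15 (20.5%). Without WT replicate 4, Rad54b (-0.22), Rad52 (-0.28), Palb2 (-0.22) and Fance (0.24) no longer passed, and Fancd2 (0.23) and Rad51b (0.61) did. These directions hold relative to the rest of the RNA: scaled to the added fly RNA, the median of all genes was 0.88 and that of the 39 was 0.64, and 21 of the 26 members with negative values had positive ones. The other 5 were Fanci, Recql, Fancf, Rad51c and Fan1.

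The members lowest in CH12F3 cells came from several roles. Fanci was 4.20, 4.92, 3.49 and 3.97 RPKM in CH12F3 and 8.42, 10.3, 8.71, 9.51 and 8.58 RPKM in spleen libraries, with no overlap (-1.15 ± 0.129, edgeR adjusted p = 1.34e-08). Polh was 14.7, 13.7, 20.6 and 19.1 RPKM against 29.1, 31.5, 32.6, 23.9 and 29.4 RPKM (-0.76 ± 0.0874; 0.18 with the fly scaling). Recql was 3.39, 3.20, 4.74 and 4.48 RPKM in CH12F3 cells and 7.97, 7.93, 7.94, 8.60 and 12.2 RPKM in spleen (-1.17 ± 0.137). In all 3 genes every CH12F3 library was below every spleen library. Fancf showed the largest fold, at 0.512, 0.586, 1.83 and 1.72 RPKM in CH12F3 and 6.69, 6.55, 6.1995, 3.91 and 2.78 RPKM in spleen libraries (-2.13 ± 0.274). The low values of Fancf within each culture were its first-series libraries, and the cultures were apart within each series. Fancf shares 14.96% of its exon bases with Gas2 on the other strand, which was also lower in CH12F3 cells (-1.18, edgeR adjusted p = 0.000250). Rad54l, a motor protein of the SNF2 family, was 8.12, 7.21, 7.74 and 7.20 RPKM in CH12F3 cells against 9.95, 11.8, 11.4, 11.2 and 10.5 RPKM (-0.54 ± 0.0779; 0.42 with the fly scaling). Fancm, the translocase that anchors the core complex, was 5.47, 3.95, 3.74 and 3.96 against 6.06, 7.12, 6.26, 9.29 and 7.92 RPKM (-0.81 ± 0.127; 0.16 with the fly scaling). Neither overlapped between the cultures.

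Among the 7 genes higher in CH12F3 cells, Fancl, the ubiquitin ligase of the Fanconi core complex, stood highest, at 7.70, 6.06, 8.88 and 9.22 RPKM against 3.70, 3.06, 5.04, 3.15 and 5.37 RPKM (0.97 ± 0.159, edgeR adjusted p = 6.32e-06). Every CH12F3 library was above every spleen library. Ube2t, the conjugating enzyme that works with FANCL, was 3.69, 3.59, 3.43 and 3.36 RPKM in CH12F3 and 2.19, 2.55, 1.86, 3.51 and 1.96 RPKM in spleen cells, overlapping by 1 spleen library, WT replicate 4 (0.53 ± 0.187, edgeR adjusted p = 0.0156). Wrn was 10.5, 8.76, 8.13 and 8.08 RPKM in CH12F3 and 5.51, 5.96, 5.32, 9.35 and 6.14 RPKM in spleen cells (0.44 ± 0.108). Blm was 22.4, 19.8, 23.1 and 21.5 against 13.7, 14.3, 12.6, 22.5 and 18.04 RPKM (0.42 ± 0.109). In both, as in Rev1, the translesion scaffold (10.9, 10.7, 9.36 and 9.12 against 6.62, 6.76, 6.83, 10.2 and 8.21 RPKM, 0.35 ± 0.0860), WT replicate 4 alone lay inside the CH12F3 range. Without it the log2 fold changes were 0.69 for Ube2t, 0.55 for Wrn, 0.51 for Blm and 0.41 for Rev1, all past the threshold. Top3a, the topoisomerase that works with BLM, was 9.22, 12.8, 12.7 and 12.2 against 9.52, 8.61, 8.45, 9.39 and 9.80 RPKM (0.36 ± 0.0990), with 1 CH12F3 library in the spleen range. The seventh was Fance, a core complex subunit (0.27 ± 0.116). Fancl shares 13.7% of its exon bases with Vrk2, Rev1 26.6% with Eif5b and Recql 38.5% with Pyroxd1, each on the other strand. Rad54l shares 15.4% with Lrrc41, which was higher in CH12F3 cells (0.85). Brca1 (-0.05 ± 0.0868), Brca2 (0.10 ± 0.155), Rad18 (0.09 ± 0.103) and Fancd2 (0.09 ± 0.112) did not pass.

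The log2 fold changes between the cultures ran with the genomic length of the members (plot of fold change against span). Spearman's rho over the 39 genes was 0.50, and over all 15639 genes 0.09. The 5 members spanning 100 kb or more had a median of 0.15 and the 17 under 30 kb one of -0.54, where all genes of these lengths had medians of 0.17 and -0.13. The points share their libraries, and the relation is a description without a test. In the genotype comparisons rho over the 39 was -0.23, -0.04 and -0.23 in CH12F3 cells and -0.23 and -0.24 in spleen, and over all genes it was -0.13, -0.07, -0.18, -0.23 and -0.16.

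**Figure D4:**
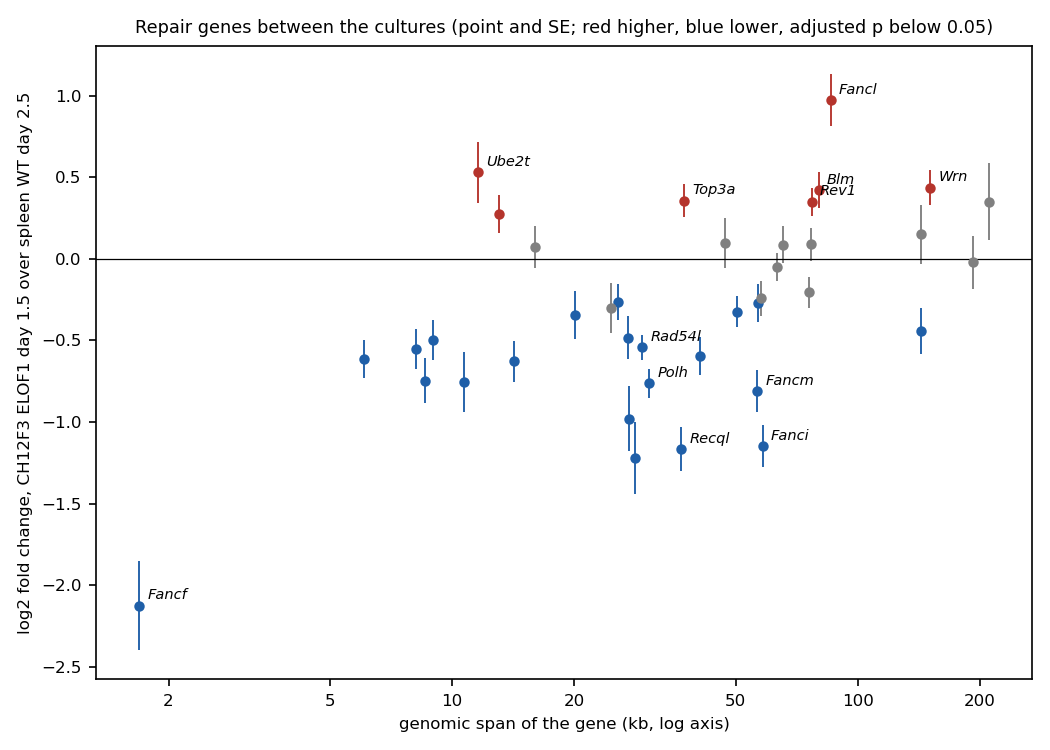
Log2 fold change of CH12F3 ELOF1 cells at day 1.5 over spleen WT cells at day 2.5 (y axis, point and SE) against genomic span (x axis, kb, log) for the 39 genes; red genes are higher and blue genes lower at an adjusted p below 0.05. The short genes lie mostly below 0, with Fancf lowest, and Fancl lies highest.

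Many of the 39 genes differed between the library series. Between the first and second series, 17 of 39 passed in CH12F3 cells (38.5% of all genes), 11 higher and 6 lower in the first, and 19 of 39 in spleen (40.3% of all genes), 13 higher and 6 lower. Of these, 10 passed in both systems (25.6% of the 39, against 19.6% of the 12258 genes tested in both), and 9 of the 10 in the same direction (of all genes passing in both, 91.01%). Without WT day 2.5 replicate 4, 11 of 39 passed in spleen (39.3% of all genes), 9 higher and 2 lower. Fancf had the largest difference: in CH12F3 cells at day 1.5 it was 0.918 and 1.04 CPM in the first-series and 3.29 and 3.11 CPM in the second-series ELOF1 libraries, and 0.249 and 0.916 against 3.83 and 2.89 CPM in vector libraries (-2.04 ± 0.348), and in spleen at day 2.5 it was 6.21 and 4.38 against 9.77 to 10.6 CPM in WT libraries (-0.88 ± 0.145). Gas2, which overlaps Fancf, was lower in the first series in CH12F3 cells (-0.86, edgeR adjusted p = 0.0270) and at 0.03 in spleen. Polh was also lower in the first series in both systems (-0.48 ± 0.0775 and -0.22 ± 0.0796). Brca1, Brca2, Fancm, Rad54b, Rev1, Rev3l and Wrn were higher in both, by 0.26 to 0.66. WT replicate 4 was far above the other WT libraries for Wrn (56.0 CPM, the others 31.6 to 36.4) and Rev3l (114 CPM, the others 49.9 to 60.9). Without it Wrn (0.20), Rev3l (0.29) and Polh (-0.16) no longer passed in spleen. Eif5b, which overlaps Rev1, was also higher in the first series, by 0.68 in CH12F3 cells and 1.07 in spleen (edgeR adjusted p = 0.000374 and 8.61e-06). Recql alone turned, lower in CH12F3 cells (-0.29 ± 0.0993) and higher in spleen (0.37 ± 0.0991). In spleen at day 2.5 only the replicates numbered 5 stood high for Recql, at 83.9 CPM in cKO and 85.4 CPM in WT. The other libraries, first-series replicate 4 included, were at 52.8 to 60.7 and 55.4 to 60.7 CPM. In CH12F3 cells the low libraries were the first-series ELOF1 ones, as given above. The sources used here do not say what the library numbers stand for, and mitochondrial ribosomal RNA differed between them as stated above; its part in these values was not tested.

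**Figure D5:**
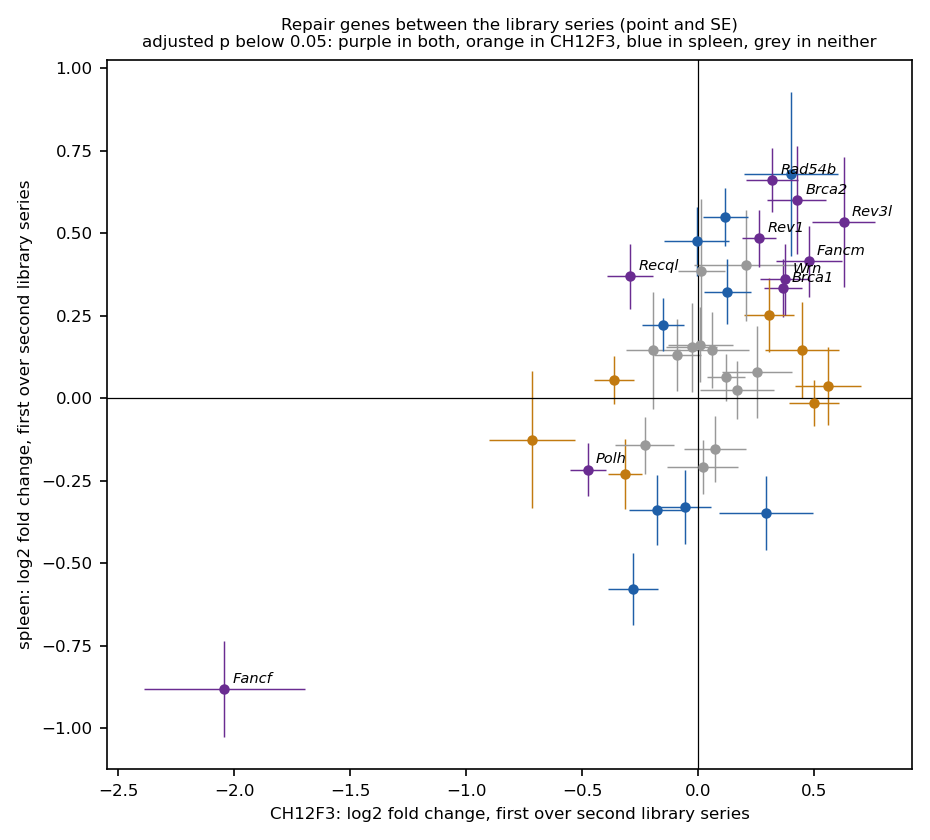
Log2 fold change between the first and the second library series in CH12F3 cells (x axis) and spleen cells (y axis) for the 39 genes, with SE. Purple genes passed in both systems: Fancf and Polh lie low in both, Recql lies on opposite sides, and the other 7 lie high in both. The spleen values of Polh, Rev3l and Wrn did not pass without WT day 2.5 replicate 4.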

How the data were processed

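RNA was sequenced from 32 mouse B cell libraries. The authors deposited unnormalised counts in 1 table per cell system. The submitters' processing notes list Bowtie2 and featureCounts with builds mm10 and dm6. The sources used here do not say whether counting used strand or how multiply mapped reads were treated, so overlapping genes are uncertain. No column belonged to a sample outside the series. Fly genes of the added reference RNA (17509 of 60854) were set aside, and 42461 of 43345 mouse genes had a symbol; the rest held 0.355% to 0.470% of mouse counts.

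Genes were tested with edgeR 4.0.16 (limma 3.58.1, R 4.3.3; quasi-likelihood test, TMM scaling, filterByExpr with a minimum count of 10) in 1 fit per system over 16 libraries, with terms for group and library series, and over all 32 for the cultures. The threshold was a Benjamini-Hochberg adjusted p below 0.05 over all genes. CPM are after TMM scaling within a system, and RPKM use the union of exons and a scale over all 32 libraries. Python 3.11.15 with pandas 2.3.3 was used for summaries and matplotlib 3.10.9 for plots. The scripts were tested on simulated counts.

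The members, lists and tests were chosen with earlier results of these data known. Members are given by library where they passed in a genotype comparison or had the 2 smallest p-values in one without calls, and otherwise were chosen after their values were seen; for the cultures, up to 6 with the smallest p in each direction are named. In CH12F3 cells same-numbered libraries of the 2 genotypes deviated together from their group means. Correlations over 14063 genes were 0.290 to 0.639 in 8 pairs. At day 1.5 they were 0.398 to 0.427 with series removed as well. At days 3 and 7 the 2 pairs of a day give 1 mirrored value. The replicate numbers of the labels were therefore taken to pair libraries, but only in the replicate block, an alternative fit. The CH12F3 fold changes, standard errors and p-values given by gene come from the fit without pairs.

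Alternatives were DESeq2 1.42.0, its size factors (RLE), scaling to fly counts, no filter, no term for series, the second series alone, the groups compared alone, a replicate block and leaving out each library; the first series alone, and the series comparison without WT day 2.5 replicate 4, were added after seeing the data. No 2 libraries of the same group agreed within sampling noise. Pairs from different groups were not checked.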

Additional observations from a re-analysis of the deposited data

Results flagged for a closer look

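Over the 39 genes, 156 groups of 4 or 5 libraries were checked for a library far from the rest of its group, and 11 had one by Dixon's criterion, which weighs the gap to the nearest library against the range of the group. Chance flags about 1 in 20 groups where they are independent, but genes measured in 1 library are not, so the 11 are not compared with that share. All 11 lay in first-series libraries. WT day 2.5 replicate 4 was above the other WT libraries for Palb2 (26.9 CPM, the others 19.6 to 20.98), Rad51b (14.0 CPM, the others 4.39 to 6.84), Wrn (56.0 CPM, the others 31.6 to 36.4), Fancd2 (84.3 CPM, the others 55.4 to 59.5) and Rev3l (114 CPM, the others 49.9 to 60.9). The cKO library with the same number was above the other cKO libraries for Palb2 (32.02 CPM, the others 20.4 to 23.8) and Rad54l (84.9 CPM, the others 70.1 to 72.7). Replicate 5 was high for Recql in both genotypes, at 83.9 CPM in cKO (the others 52.8 to 60.7) and 85.4 CPM in WT (the others 55.4 to 60.7). In CH12F3 ELOF1 cells at day 1.5, replicate 1 was low for Top3a (45.0 CPM, the others 59.7 to 62.0) and high for Fancm (45.1 CPM, the others 31.0 to 32.8).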

How the results depend on the processing

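In CH12F3 cells the count of members called was 0 under every alternative for the 3 genotype comparisons, their 2 differences and the 2 time comparisons, with 1 library left out as well. The main counts in spleen were 2 for genotype at day 2.5, 1 at day 3.5, 1 for WT time, 0 for cKO time and 0 for the difference of effects. Scaled to fly counts, the first 3 were 0, 0 and 0. Without a term for series the genotype counts were 1 and 0. At day 2.5 the count was 1 in the second series alone, 0 in the first alone and 1 with only the groups compared. For WT time it was 0 without a filter, 4 with DESeq2, 8 in the second series alone and 0 with only the groups compared, and for cKO time it was 1 (Rad51d) in the second series alone. With 1 library left out, these counts ran from 1 to 2, 0 to 1 and 0 to 2, and 25 to 28 for the cultures. Without WT day 2.5 replicate 4, 11 members passed between the series in spleen (main 19). In spleen the first-series pairs at day 2.5 deviated together (correlation 0.752 with series removed), but the second-series pairs did not all do so (0.120, -0.185 and -0.110 at day 2.5, 0.0776, -0.255 and -0.114 at day 3.5), so the numbers were not taken as pairs; the replicate block gave 3 calls at day 2.5 (Fanci, Rad18 and Rad51b) and 1 at day 3.5. The block changed no call among the members in CH12F3 cells. Shares of all genes under the same settings are not given beside these counts. A rise or fall is therefore not read as particular to the members.

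Fanci was called in 7 of 9 alternatives, Rad18 in 4 of 9, Rmi1 in 6 of 8 and Rad51d in 4 of 7. Fly scaling moved the median of all genes most between the cultures, to 0.88. There it turned Rad54b to 0.67, Fancg to 0.41, Rad54l to 0.42, Rad52 to 0.62, Palb2 to 0.69, Dna2 to 0.47, Fanca to 0.64, Rad51d to 0.31, Brip1 to 0.52, Eme1 to 0.45, Recql5 to 0.32, Rmi1 to 0.20, Fancm to 0.16, Xrcc3 to 0.17, Polh to 0.18, Mus81 to 0.34, Bard1 to 0.76, Brca1 to 0.91, Fancc to 0.94, Slx4 to 0.63 and Rmi2 to 0.69. Counts over all genes also moved by over 1.5 times. For CH12F3 day 1.5 (main 164) they were 447 with DESeq2, 735 unfiltered, 45 with fly scaling, 22 without the series term, 0 in the second series, 52 in the first, 64 with only the groups compared and 1221 with the block. For spleen day 2.5 (main 693) they were 93 with fly scaling, 203 without the series term, 343 with only the groups compared, 0 in the first series and 1543 with the block, and for day 3.5 (main 277) 105, 87, 864, 1206 in the second series, 512 unfiltered, 573 with DESeq2 and 830 with the block. Depth limits Fancf and Fan1 most in CH12F3 cells and Rad51b most in spleen.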
